A study of Mus musculus with 24 samples.

Results

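The complement genes described here are C4b, C1qa, C1qb, C1qc, C3, C3ar1, C5ar1 and Serping1, 8 genes found by symbol among the 36605 genes counted in the hippocampus of 24 adult mice. They were chosen by the C4b counts of these same data, which were lower in mice with a Nestin-Cre transgene than in mice without. The Nestin-Cre values of C4b are therefore given as a description with no test, and the question is whether the other 7 genes were lower as well.

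Complement is a set of proteins that tag and remove targets. C1q is built from the chains encoded by C1qa, C1qb and C1qc. In the classical pathway it binds a target, after which C4 and then C3 are cleaved and attached to the target's surface. The released C3a fragment acts on the receptor encoded by C3ar1. C5a, released from C5 at a later step, acts on that encoded by C5ar1. Serping1 encodes the C1 inhibitor, which blocks the proteases that C1q activates. In the brain C1q is made mostly by microglia, C4b largely by cells of the neural lineage such as astrocytes, oligodendrocytes and neurons, and the pathway is known for tagging synapses that microglia then remove.

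The mice fell into 4 genotypes of 6 mice, each with 3 females and 3 males. Egr1wtNesCre- mice were the complete wild type. Egr1wtNesCre+ mice carried the Nestin-Cre transgene alone (the Cre control), Egr1fNesCre- mice carried the floxed tm1a allele of Egr1 without Cre (the Egr1cKO control), and Egr1fNesCre+ mice carried both (Egr1cKO). The floxed strain came from C57BL/6N and the Cre strain from B6 mice, and exact ages are not given. The Nestin promoter drives Cre in neural precursors, so neurons, astrocytes and oligodendrocytes across the whole brain descend from Cre-expressing cells, while microglia and blood vessels lie outside that lineage. Mice with and without the floxed allele have numbers from separate ranges, so floxP and the series of mice cannot be told apart. In Egr1f mice the Nestin-Cre difference also includes the loss of Egr1.

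Totals ran from 18025168 to 34955004 counts per mouse, with a median of 22743950.5. Egr1, the targeted gene, was at 4.90 to 10.2 CPM (counts relative to library size) in Egr1fNesCre+ mice and at 66.9 to 146 CPM in Egr1fNesCre- mice, with no overlap (log2 fold change -3.56, SE 0.24, adjusted p = 3.67e-10 by edgeR). The labels also call the material endocrine, but Prl was at 0 in 15 mice and the 7 pituitary markers in the table summed to at most 3.85 CPM, against 1987 to 2884 CPM for 7 hippocampal markers. Choroid plexus markers summed to 331 to 2100 CPM in 5 mice and to 32.8 to 85.6 CPM in the others, and fibroblast markers reached 810 CPM in 1 Egr1wtNesCre- female. Leaving out either set of mice changed no call among the 7 genes other than C4b, and values without them are given for C3, C3ar1, C5ar1 and Serping1.

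All 8 genes are protein-coding and lie on the minus strand in the GRCm38 build. C4b spans chr17:34728380-34743882 and C3 chr17:57203970-57228136. The C1q genes are neighbours, with C1qb at chr4:136880129-136886187, C1qc at chr4:136889804-136893065 and C1qa at chr4:136895917-136898803. C3ar1 lies at chr6:122847138-122856161, C5ar1 at chr7:16246743-16259540 and Serping1 at chr2:84765387-84775444. No exonic base of the 8 genes overlaps an exon of another gene.

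C4b has a near-identical neighbour, C4a, and reads from stretches that both genes share could be split between them or dropped in counting. Over the 5214 coding bases of C4b, 95.95% were the same in C4a, and the longest identical run was 433 bases. Of all 150-base windows of the longest C4b transcript, 8.26% occur unchanged in C4a, and of 50-base windows 35.2%. The 90-base stretch in which they differ most, at 14 positions, lies in exon 21 of 41 of C4b, at chr17:34735430-34735519, and shows where reads can tell them apart. It is given 5′ to 3′ from the GENCODE M21 transcripts, with the bases that differ in capitals:

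C4b: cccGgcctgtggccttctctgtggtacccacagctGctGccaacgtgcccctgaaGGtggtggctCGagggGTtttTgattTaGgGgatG

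C4a: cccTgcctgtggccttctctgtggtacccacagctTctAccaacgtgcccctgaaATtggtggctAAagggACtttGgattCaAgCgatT

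The RefSeq table of promoters on GRCm38.p6, from 250 bases before to 50 bases after a gene's start, holds C1qb, C1qc, C3, C3ar1 and C5ar1. The EGR1 motifs GCGTGGGCG and GCGGGGGCG, searched on both strands, were in none of these 5 windows, and in 0.612% and 2.91% of 32851 promoters. GAGGAA, the core of sites for the myeloid factor PU.1, was in those of C1qb and C1qc and in 28.3% of all promoters. These are shown because the C1q genes are adjacent and varied together across the mice, with the match on either strand in capitals. They span chr4:136886151-136886450 for C1qb and chr4:136892865-136893164 for C1qc and are written along the minus strand:

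C1qb: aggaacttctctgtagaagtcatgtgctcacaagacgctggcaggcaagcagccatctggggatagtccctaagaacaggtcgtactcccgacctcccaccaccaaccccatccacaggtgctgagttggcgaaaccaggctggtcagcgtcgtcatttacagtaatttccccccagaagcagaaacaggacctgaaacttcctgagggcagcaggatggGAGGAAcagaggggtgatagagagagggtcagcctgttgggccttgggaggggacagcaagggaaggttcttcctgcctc

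C1qc: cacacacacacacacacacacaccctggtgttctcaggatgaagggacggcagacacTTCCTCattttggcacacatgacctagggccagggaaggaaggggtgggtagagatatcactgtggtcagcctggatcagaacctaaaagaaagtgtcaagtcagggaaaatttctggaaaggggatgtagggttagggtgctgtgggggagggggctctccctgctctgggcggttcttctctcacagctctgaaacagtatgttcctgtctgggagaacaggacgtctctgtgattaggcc

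A match is a description of these letters, not of a bound site. No data on binding or methylation were used here.

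The levels of the 8 genes differed widely. Per kilobase of exons, the initiating genes were the highest, with a mean of 33.7 CPM per kb for C1qa (26.6 to 45.8 over the 24 mice), 31.9 for C1qb (25.7 to 37.9) and 15.8 for C1qc (11.9 to 20.2). C4b followed at 5.89 CPM per kb (3.94 to 8.72) and Serping1 at 2.46 (1.25 to 4.16). The receptors were lower, C3ar1 at 0.385 CPM per kb (0.153 to 0.699) and C5ar1 at 0.212 (0.0749 to 0.348), and C3 was the lowest at 0.114 (0.0248 to 0.266). In this order the ranges of C1qa and C1qb, of C4b and Serping1, of C3ar1 and C5ar1 and of C5ar1 and C3 overlapped, while those of the other neighbours did not. C3, the protein on which all complement pathways meet, thus rested on 3 to 31 counts per mouse, and C5ar1 on 4 to 21.

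**Figure D1:**
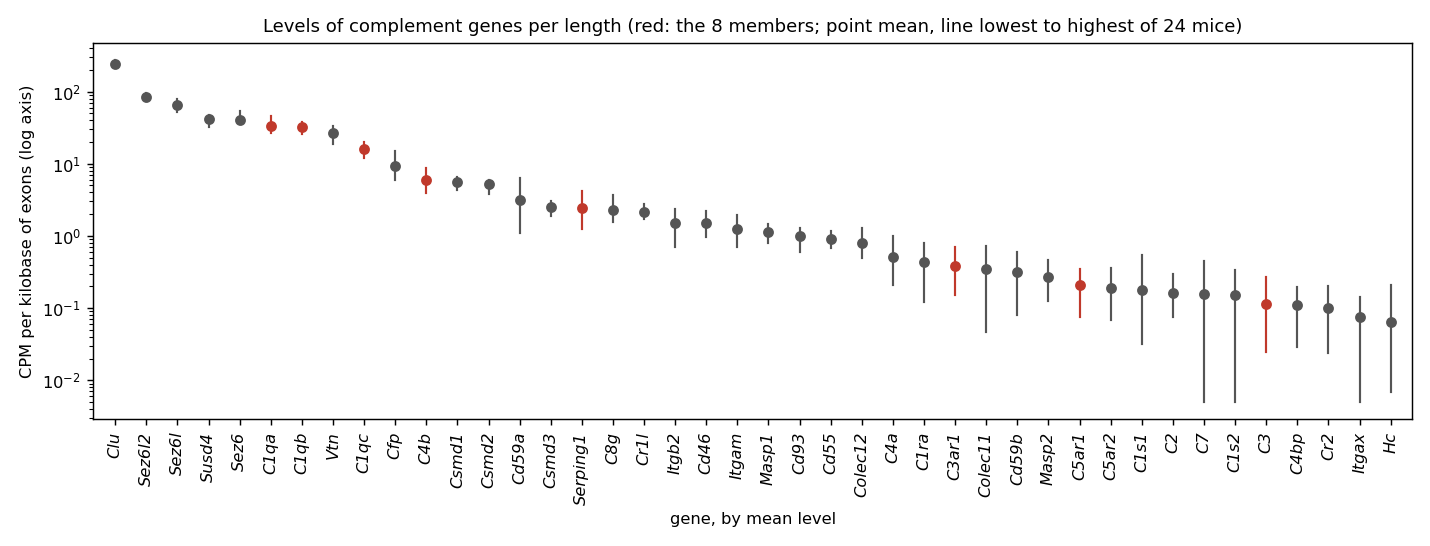
Levels of the 8 genes (red) and 34 other complement genes (grey) in CPM per kilobase of exons on a log axis, as the mean and the lowest to highest of 24 mice, with lowest values under 0.005 drawn at 0.005. The C1q genes stand among the highest, above 10 CPM per kb, and C3 among the lowest at 0.114.

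Of 34 other complement genes that were tested, Clu, which encodes clusterin, an inhibitor of the terminal complex, was the highest at 245 CPM per kb. C4a was at 0.507 CPM per kb, far under C4b. Of the terminal complex and the alternative pathway, Cfb, Cfd, C8a, C8b and C9 did not pass the filter on low counts.

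C4b, whose product carries the pathway from C1q to C3, was lower with Nestin-Cre in both comparisons. In Egr1wt mice without Cre it was at 28.9 CPM at the lowest, 38.9 at the median and 48.6 at the highest, and with Cre at 24.2, 29.9 and 35.8 CPM. In Egr1f mice without Cre it was at 29.5, 41.4 and 49.6 CPM, and with Cre at 22.4, 23.6 and 30.4 CPM. Both comparisons overlapped: a mouse with Cre was above one without in 6 of 36 pairs among Egr1wt mice and in 2 of 36 among Egr1f mice.

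The mean of C4b was 37.9 ± 7.22 CPM (SD, n = 6) in Egr1wtNesCre- mice and 29.9 ± 4.0 (SD, n = 6) in Egr1wtNesCre+ mice, a log2 fold change of -0.34, or a change of -20.9%. It was 40.9 ± 6.97 CPM (SD, n = 6) in Egr1fNesCre- mice and 25.5 ± 3.57 (SD, n = 6) in Egr1fNesCre+ mice, a log2 fold change of -0.69, or a change of -37.9%. These are the values for which the genes were brought together. Under the 35 alternatives the log2 fold change ran from -0.48 (males alone) to -0.21 (females alone) in Egr1wt mice. In Egr1f mice it ran from -0.76 to -0.63. The alternatives refit the same counts by which C4b was chosen, so these ranges are a description and no support for the difference. In bulk tissue, fewer cells that make C4b and less C4b RNA per cell cannot be told apart.

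Within each sex the ratio of C4b with Cre to without was 0.862 in Egr1wt females, 0.722 in Egr1wt males, 0.609 in Egr1f females and 0.635 in Egr1f males. The groups of 3 overlapped in Egr1wt females and did not in the other splits. The share of all genes with such lower groups was 2.95% in Egr1wt males, 10.1% in Egr1f females and 4.82% in Egr1f males. The females of Egr1fNesCre+ lay closest together, at 22.4, 23.2 and 23.3 CPM.

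**Figure D2:**
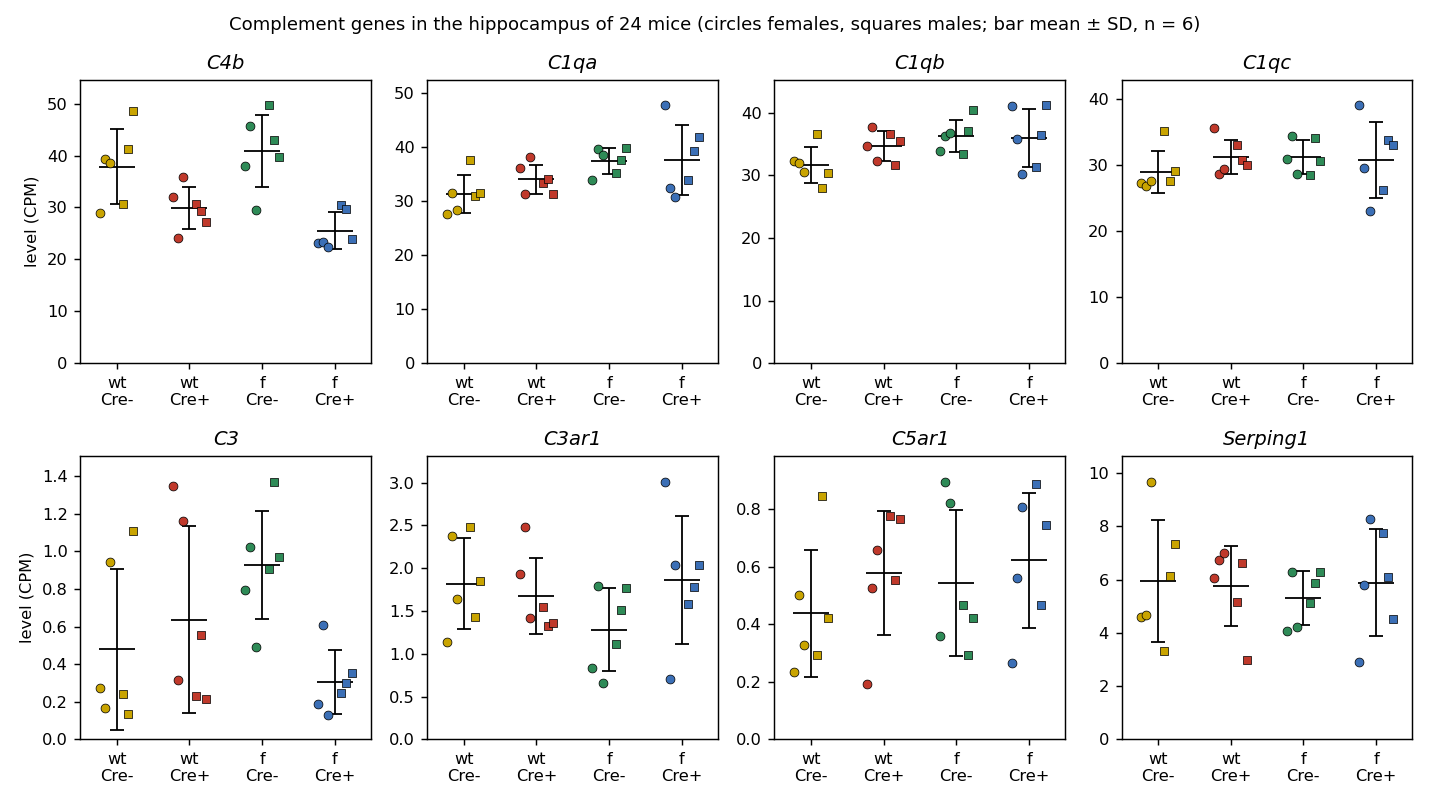
Level in CPM (vertical axis, from 0) of each of the 8 genes in every mouse, by genotype (wt and f for Egr1wt and Egr1f), with circles for females, squares for males and the mean ± SD of 6 mice as bars. C4b is the gene in which both Cre+ groups (means 29.9 and 25.5) sit under both Cre- groups (means 37.9 and 40.9), while for C1qa the Cre+ mean (37.6) is next to the Cre- mean (37.4) in Egr1f mice.

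C4a differed from C4b in direction in Egr1wt mice. It was at 2.08 to 3.13 CPM in Egr1wtNesCre- mice and at 2.60 to 5.87 CPM in Egr1wtNesCre+ mice, and at 2.43 to 6.13 CPM in Egr1fNesCre- mice and 1.31 to 3.82 CPM in Egr1fNesCre+ mice. With Cre it was thus higher on average in Egr1wt mice (log2 fold change 0.59, SE 0.26, adjusted p = 0.763 by edgeR) and lower in Egr1f mice (-0.74, SE 0.26, adjusted p = 0.229 by edgeR), and neither difference passed the test. Summing the counts of both genes removes any effect of how reads were split between them, but does not restore reads dropped in counting. The summed means were 40.4, 33.7, 44.8 and 27.8 CPM in Egr1wtNesCre-, Egr1wtNesCre+, Egr1fNesCre- and Egr1fNesCre+ mice, in the same order as for C4b alone.

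The 3 genes of C1q were at like mean levels with and without Cre in Egr1f mice. There C1qa was at 33.8, 38.0 and 39.8 CPM (lowest, median and highest) without Cre and at 30.8, 36.6 and 47.6 CPM with Cre. C1qb was at 33.4, 36.6 and 40.5 CPM without and at 30.2, 36.1 and 41.2 CPM with Cre, and C1qc at 28.5, 30.8 and 34.5 CPM without and at 23.04, 31.3 and 39.1 CPM with Cre. For each of the 3 the mice with Cre reached both below and above those without.

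The log2 fold changes of C1qa, C1qb and C1qc in Egr1f mice were 0.011, -0.011 and -0.018, with adjusted p = 0.967, 0.964 and 0.947 by edgeR. Their 95% intervals ran from -11.6% to 14.9% for C1qa, from -11.4% to 11.3% for C1qb and from -14.2% to 13.6% for C1qc. Whether these differ from the value of C4b was not tested.

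In Egr1wt mice the C1q genes were on average slightly higher with Cre, the opposite direction to C4b, and did not pass the test. C1qa was at 27.6, 31.1 and 37.5 CPM without and at 31.2, 33.7 and 38.1 CPM with Cre (log2 fold change 0.13, SE 0.093, adjusted p = 0.766 by edgeR). C1qb had a log2 fold change of 0.14 (SE 0.081, adjusted p = 0.763 by edgeR) and C1qc of 0.11 (SE 0.099, adjusted p = 0.794 by edgeR). The 95% intervals reached down to -4.38%, -1.98% and -6.08% for the 3 genes. With the 3 females alone, Cre+ mice lay above Cre- mice without overlap for C1qb and C1qc, as did 6.38% of all genes.

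C3, which C4 helps to cleave, was lower on average with Cre in Egr1f mice and higher in Egr1wt mice, and did not pass the test in either. In Egr1fNesCre- mice it was at 0.493, 0.939 and 1.37 CPM (lowest, median and highest) and in Egr1fNesCre+ mice at 0.128, 0.272 and 0.609 CPM. In 1 of 36 pairs the mouse with Cre was the higher. The log2 fold change was -1.62 (SE 0.53, adjusted p = 0.229 by edgeR), with a 95% interval of -84.8% to -30.3%.

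In Egr1wt mice C3 was at 0.134 to 1.11 CPM without Cre and at 0.213 to 1.35 CPM with Cre, in wide overlap, with a log2 fold change of 0.38 (SE 0.53, adjusted p = 0.876 by edgeR). Without the female rich in fibroblast markers it was 0.73 (adjusted p = 0.861 by edgeR). The call in Egr1f mice depended on the filter, for a reason that was not tested. With no filter on low counts the adjusted p of C3 was 0.0404 by edgeR at a log2 fold change of -1.62. This was the only alternative among 35 in which any of the other 7 genes passed. Without the 5 mice rich in choroid plexus markers the log2 fold change of C3 was -1.39 (adjusted p = 0.534 by edgeR) in Egr1f mice and 0.23 (adjusted p = 0.970 by edgeR) in Egr1wt mice. The highest C3 values of Egr1fNesCre- (1.37 CPM) and of Egr1wtNesCre+ mice (1.35 CPM) were both in such mice, but the male of Egr1fNesCre+ with 1162 CPM of these markers had 0.297 CPM of C3. The part of choroid plexus RNA in the C3 values was not tested.

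The receptors did not pass the test either. C3ar1, the receptor for the C3a fragment, was at 0.657, 1.31 and 1.79 CPM (lowest, median and highest) in Egr1fNesCre- mice and at 0.702, 1.91 and 3.01 CPM in Egr1fNesCre+ mice, the groups overlapping (log2 fold change 0.54, SE 0.30, adjusted p = 0.363 by edgeR). In Egr1wt mice its log2 fold change with Cre was -0.12 (SE 0.30, adjusted p = 0.940 by edgeR). C5ar1, the receptor for C5a, had log2 fold changes of 0.18 (SE 0.39, adjusted p = 0.853 by edgeR) in Egr1f mice and 0.40 (SE 0.40, adjusted p = 0.827 by edgeR) in Egr1wt mice. At 4 to 21 counts per mouse the 95% interval for C5ar1 in Egr1f mice ran from -35.5% to 97.7%. Without the 5 mice rich in choroid plexus markers the log2 fold changes in Egr1f mice were 0.77 for C3ar1 (adjusted p = 0.542 by edgeR) and -0.024 for C5ar1 (adjusted p = 0.987 by edgeR).

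Serping1, the regulator among the 8, was at 4.06, 5.49 and 6.30 CPM in Egr1fNesCre- mice and at 2.89, 5.96 and 8.29 CPM in Egr1fNesCre+ mice, which spread to both sides of them. Its log2 fold change with Cre was 0.14 (SE 0.25, adjusted p = 0.801 by edgeR) in Egr1f mice and -0.05 (SE 0.25, adjusted p = 0.968 by edgeR) in Egr1wt mice. The highest value of all, 9.67 CPM, was in the Egr1wtNesCre- female that also had the highest sum of fibroblast markers. Without that mouse the log2 fold change in Egr1wt mice was 0.15 (adjusted p = 0.921 by edgeR), and without the 5 mice rich in choroid plexus markers it was 0.096 (adjusted p = 0.971 by edgeR).

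**Figure D3:**
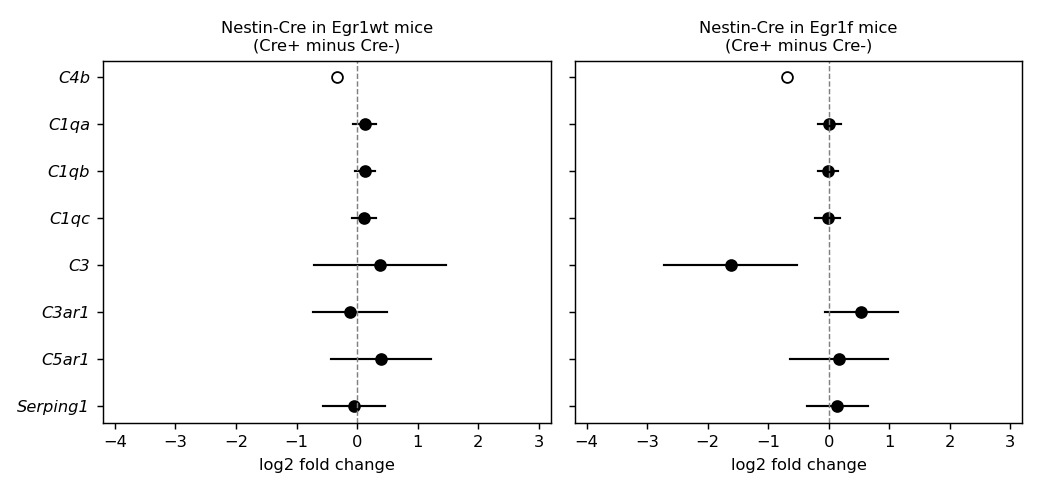
Log2 fold change with Nestin-Cre (horizontal axis) of the 8 genes in Egr1wt mice (left) and Egr1f mice (right), with 95% intervals of the edgeR fit over 24 mice as lines. C4b, an open circle with no interval because it was chosen for this difference, lies at -0.34 and -0.69, the C1q genes lie at 0.11 to 0.14 and near 0, and C3 lies at 0.38 and -1.62 with wide intervals.

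None of the 7 genes other than C4b was called in either comparison, at an adjusted p of at most 0.05 and a fold change of at least 1.2. The share of all 18433 genes called was 0% in Egr1wt mice and 0.0326% in Egr1f mice, beside which a count of 0 of 7 is no result about these genes. At an unadjusted p under 0.05, none of the 7 stood out in Egr1wt mice, where 6.06% of all genes did, and C3 did in Egr1f mice, where 16.1% did. The median log2 fold change of the 7 genes was 0.13 in Egr1wt mice and 0.011 in Egr1f mice, beside 0.010 and -0.0045 over all genes. DESeq2 called 10 genes in Egr1wt mice, none of them among the 7. The comparisons use different mice, but each shares its mice without Cre with the comparison of floxP without Cre.

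The interaction of floxP and Nestin-Cre asks whether the Cre difference is another in Egr1f than in Egr1wt mice. For C4b, given with no test because it is made of the same Cre differences, it was -0.35 on the log2 scale, the Cre difference being the larger in Egr1f mice. C3 had the largest estimate of the 8, at -2.002 (SE 0.75, adjusted p = 0.167 by edgeR). The C1q genes lay between -0.15 and -0.12 (adjusted p = 0.496 to 0.665 by edgeR), C3ar1 at 0.65 (adjusted p = 0.392 by edgeR), C5ar1 at -0.23 (adjusted p = 0.860 by edgeR) and Serping1 at 0.20 (adjusted p = 0.802 by edgeR). The estimate of C5ar1 was -0.55 without the mice rich in choroid plexus markers, and that of Serping1 was -0.0035 without the female rich in fibroblast markers. None of the 7 genes other than C4b was called, and of all genes 0.00543% were, Egr1 alone. At an unadjusted p under 0.05, C3 stood out of the 7, as did 19.2% of all genes.

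C4a had an interaction of -1.33 (SE 0.37, adjusted p = 0.150 by edgeR). It was the gene with the smallest p in the classical and lectin list.

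Without Cre, floxP mice had on average higher levels of the C1q genes, and none of the 8 was called, as was none of all genes (0%). At an unadjusted p under 0.05, C1qa and C1qb stood out of the 8, as did 6.97% of all genes. C1qa, at 27.6, 31.1 and 37.5 CPM in Egr1wtNesCre- and 33.8, 38.0 and 39.8 CPM in Egr1fNesCre- mice, was higher in 34 of 36 pairs of mice (log2 fold change 0.26, SE 0.093, adjusted p = 0.688 by edgeR). C1qb differed by 0.20 (SE 0.080, adjusted p = 0.688 by edgeR) and C1qc by 0.11 (SE 0.099, adjusted p = 0.759 by edgeR). C4b differed by 0.11 (SE 0.12, adjusted p = 0.800 by edgeR), with a 95% interval from -8.55% to 27.8%, in a comparison made of the same mice without Cre by which C4b was chosen. C3 differed by 0.98 (SE 0.52, adjusted p = 0.688 by edgeR).

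None of the 8 genes passed the test between females and males, where 0.076% of all genes were called and 5.99% had an unadjusted p under 0.05. C4b was at 31.7 ± 7.70 CPM (SD, n = 12) in females and 35.3 ± 8.67 (SD, n = 12) in males, a log2 fold change of -0.15 (SE 0.084, adjusted p = 0.867 by edgeR). The other 7 lay between -0.18 for C5ar1 and 0.22 for C3. The interaction of Nestin-Cre and sex was 0.098 for C4b, again with no test, and no gene was called in it (0% of all genes; 3.09% at an unadjusted p under 0.05, and 2 genes by DESeq2).

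**Figure D4:**
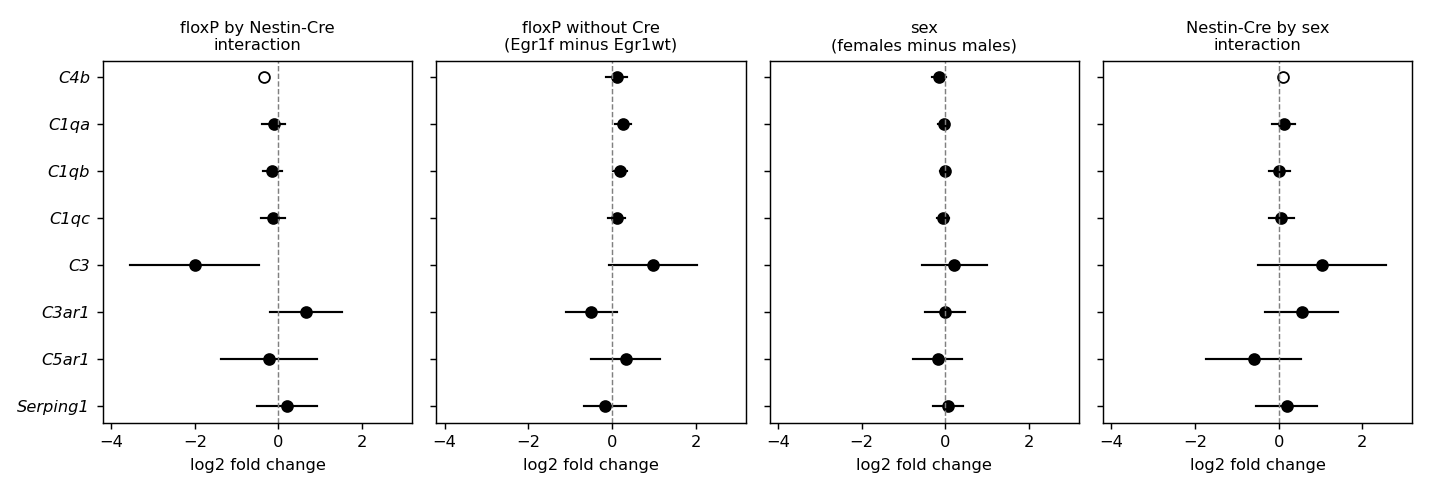
Log2 differences (horizontal axis) of the 8 genes for floxP by Nestin-Cre, floxP without Cre, sex, and the interaction of Nestin-Cre and sex, with 95% intervals of the edgeR fit over 24 mice as lines. For C4b they lie at -0.35, 0.11, -0.15 and 0.098, as an open circle with no interval in both interactions, and the widest intervals are those of C3 and C5ar1.

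The wider complement list held 50 further genes, of which 47 were in the table and 34 passed the filter. None was called in any of the 6 comparisons. In Egr1f mice 20 had positive and 14 negative log2 fold changes with Cre (median 0.12), and in Egr1wt mice 17 and 17 (median -0.0095). In the classical and lectin pathway, where C4b acts, 3 of 9 genes were lower in Egr1f mice at an unadjusted p under 0.05: Masp2, a protease of the lectin pathway (log2 fold change -0.84, adjusted p = 0.229 by edgeR), C4a, and Colec11, a lectin (-0.95, adjusted p = 0.281 by edgeR). None of the 9 was higher at that level. Over all mice Masp2 averaged 0.882 CPM (0.409 to 1.53) and Colec11 0.56 CPM (0.0762 to 1.18), so both rested on few counts. C4a is the near-identical neighbour of C4b. Over the 34 genes 3 were higher and 4 lower, beside the 16.1% of all genes at that level in either direction.

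Of the other groups in Egr1f mice, Cfp, which encodes properdin, the stabiliser of the alternative pathway, was at 14.0 ± 3.87 CPM (SD, n = 6) with and 19.1 ± 4.88 (SD, n = 6) without Cre (log2 fold change -0.44, adjusted p = 0.229 by edgeR). All 7 receptors tested had positive values, with a median of 0.20. Of 14 regulators 8 were positive and 6 negative. Sez6, a neuronal complement regulator (log2 fold change 0.21, adjusted p = 0.219 by edgeR), and Csmd1, another (0.27, adjusted p = 0.229 by edgeR), had the smallest p among these.

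C4b lies in a gene-dense stretch of chromosome 17, and 24 of 27 listed neighbours were tested. None was called. In Egr1f mice 20 of the 24 had negative log2 fold changes with Cre, with a median of -0.16, where 50.8% of all genes were negative and their median was -0.0045. At an unadjusted p under 0.05, 8 of the 24 were lower and 0 higher, beside 16.1% of all genes in either direction. The smallest p were those of C4a, Neu1, a lysosomal sialidase (log2 fold change -0.18, adjusted p = 0.229 by edgeR), and Stk19 (-0.23, adjusted p = 0.247 by edgeR). In Egr1wt mice 20 of the 24 were positive, with a median of 0.064, and in the comparison of floxP without Cre 22 of the 24 were positive, with a median of 0.16. The last comparison shares its mice without Cre with the other two. C4b itself had log2 fold changes of -0.34, -0.69 and 0.11 in Egr1wt mice with Cre, in Egr1f mice with Cre and with floxP, so in Egr1wt mice it went against most of its neighbours.

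Markers of the cell types that make these genes were set beside them. Microglia, the main source of C1q, had 14 of 14 markers in the table, summing to 316 to 363 CPM in Egr1wtNesCre-, 282 to 408 in Egr1wtNesCre+, 311 to 387 in Egr1fNesCre- and 376 to 437 CPM in Egr1fNesCre+ mice. In Egr1f mice 12 of the 14 markers were positive with Cre (median log2 fold change 0.19), and none was called. The C1q genes, with log2 fold changes from -0.018 to 0.011 there, lay under that median. The macrophages of the brain's borders had sums of 2.34 to 13.4 CPM over all mice.

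Among cells that arise from Nestin-Cre precursors, the 10 oligodendrocyte markers were all negative with Cre in Egr1f mice (median log2 fold change -0.22), the direction of C4b. They summed to 4347 to 6373 CPM without and 3501 to 5049 CPM with Cre, and none was called. Mobp, a myelin gene, had the smallest p (log2 fold change -0.52, SE 0.12, adjusted p = 0.214 by edgeR). In Egr1wt mice 9 of the 10 were positive (median 0.11), the direction opposite to that of C4b. The part of oligodendrocyte content in the C4b values was not tested. Neuron markers went the other way in Egr1f mice, with 7 of 8 positive (median 0.12), and in Egr1wt mice 7 of 8 were negative (median -0.054). Of the 6 markers of oligodendrocyte precursors 4 were positive in Egr1f mice (median 0.18) and 3 in Egr1wt mice (median -0.056). None of these was called.

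Of the other lists, 9 of 10 fibroblast markers were positive with Cre in Egr1f mice (median log2 fold change 0.55) and 6 of 10 in Egr1wt mice (median 0.028). Of the 10 choroid plexus markers tested, 10 were positive in Egr1wt mice (median 2.44) and 8 were negative in Egr1f mice (median -0.43). These values rest largely on single mice. The median choroid plexus sums without and with Cre were 41.9 and 70.4 CPM in Egr1wt mice, and 48.7 and 60.3 CPM in Egr1f mice. In Egr1wtNesCre+ mice the sum was 2100 CPM in female replicate 1 and 331 CPM in male replicate 3. In Egr1fNesCre- mice it was 835 and 1053 CPM in male replicates 2 and 3. None of the markers of both lists was called, and their part in the values of the 8 genes was not tested.

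Astrocyte markers summed to 4655 to 6269 CPM in Egr1fNesCre- and 4927 to 6540 CPM in Egr1fNesCre+ mice. One of the 12, Aqp4, the water channel of astrocyte endfeet, rose in Egr1f mice with Cre, from 135 ± 23.7 CPM (SD, n = 6) to 240 ± 25.8 (SD, n = 6), a log2 fold change of 0.82 (SE 0.11, adjusted p = 0.000608 by edgeR). It was the only gene called in any marker list. Of the 12 markers 7 were positive and 5 negative in Egr1f mice (median log2 fold change 0.096). In Egr1wt mice 9 were positive and 3 negative (median 0.057), where the sums were 4715 to 6137 CPM without and 4517 to 6067 CPM with Cre. A list of 17 genes of reactive astrocytes, which includes Serping1, summed to 469 to 520 CPM in Egr1wtNesCre- and 537 to 653 CPM in Egr1wtNesCre+ mice. In Egr1fNesCre- and Egr1fNesCre+ mice it summed to 458 to 579 and 431 to 692 CPM. Much of this sum is Gfap, with a median of 393 CPM over all mice beside a median sum of 561 CPM. Of the 15 tested genes of the list 8 were positive and 7 negative in Egr1wt mice (median 0.072), while C4b was at -0.34. In Egr1f mice 9 were positive and 6 negative (median 0.051), while C4b was at -0.69.

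Across the 24 mice the C1q genes varied together. On the scale of log2(CPM + 1), Pearson's r was 0.718 between C1qa and C1qb, 0.726 between C1qa and C1qc and 0.682 between C1qb and C1qc, and 0.643, 0.779 and 0.713 after the mean of each group of sex and genotype was removed. C4b was at r of -0.080, -0.337 and -0.018 with C1qa, C1qb and C1qc. Its highest r among the other 7 genes was with C3, at 0.592, and at 0.548 within groups. These are descriptions over mice that share the differences between genotypes.

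Among 15125 genes with a mean of at least 1 CPM, those most like C4b over the 24 mice were Ccdc9b (r of 0.719), Lgals1 (0.680), Telo2 (0.666), Kcne4 (0.640) and Enpp1 (0.636). Within groups of sex and genotype their r with C4b was 0.614, 0.375, 0.252, 0.496 and 0.695 in the same order, lower for all but Enpp1. For C1qa they were Ppp1r1b, U2af2, C1qc, Csnk1g2 and C1qb, at r of 0.752 to 0.718, so that both its partner chains were among the first 5. For C3 they were Htra3, 2410004P03Rik, Tmem212, Ccdc153 and C230037L18Rik, at 0.751 to 0.715. For Serping1 the first 4 were Efemp1 (0.836), Ogn, Lum and Slc6a13 (0.776), of which Lum and Slc6a13 are in the list of fibroblast markers.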

How the data were processed

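Hippocampal RNA of 24 mice was measured, with groups taken from the labels. The authors used an RNeasy kit, sent the RNA out for polyA libraries and paired-end NovaSeq sequencing, trimmed reads with Trim Galore, and mapped and counted them with STAR on mm10. The methods and the submitters' processing notes give different versions (STAR 2.7.9 and Trim Galore 3.8.2 in the notes), and the annotation used for counting is not given in the sources used here. The authors deposited raw counts, not normalized, of 36605 genes in each mouse. Libraries were non-stranded, so reads of antisense partners cannot be told apart. Nothing says that mice were littermates or pooled, and each mouse was 1 replicate.

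Symbols, positions and exonic lengths came from GENCODE M21 on GRCm38, with a symbol for 36493 genes. In R 4.3.3, edgeR 4.0.16 (TMM, filterByExpr with a minimum count of 10, quasi-likelihood test, Benjamini-Hochberg adjustment over 18433 genes) was fitted over all 24 mice with floxP, Cre, their interaction and sex, or with 8 groups for the interaction of Cre and sex. The call threshold was an adjusted p of 0.05, and a fold change of at least 1.2 where groups were compared. The mean levels are CPM with TMM factors. On simulated data with 200 genes changed 2-fold among 18433, 72.5% were recovered for Cre in Egr1wt mice and 70.5% in Egr1f mice. The changed genes were drawn at random, so these shares do not hold for smaller differences or for genes with few counts. The members and gene lists were chosen with earlier results of these data known. Named are the 8 genes, C4a, Egr1, called genes of the lists, up to 3 genes of smallest p per list and comparison, and the 5 genes most like C4b, C1qa and C3 and 4 for Serping1. Exceptions are levels named by rank or by the filter, and single markers given for the tissue check or beside a list sum, chosen after their values were seen. Alternatives were DESeq2 1.42.0, limma-voom (limma 3.58.1), other size factors, no filter, no fold change minimum, no sex term, only the mice compared, 1 sex, a replicate block and each mouse left out. Leaving out mice rich in choroid plexus or fibroblast markers was added after the data were seen. C1rb, Mbl1 and C6 were not analysed here, and a listed regulator is not reported here.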

Additional observations from a re-analysis of the deposited data

Results flagged for a closer look

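In the Egr1wtNesCre- group, 1 male had 35.21 CPM of C1qc, while the other 5 mice of the genotype had 26.85 to 29.05 CPM. Its distance from the nearest mouse was 0.7365 of the range of the group, above Dixon's critical value of 0.625 for 6 mice. This mouse also had the highest C1qa (37.5 CPM), the highest C1qb (36.6 CPM) and the highest sum of microglia markers (363 CPM) of its group. Of 32 sets of 6 mice examined, 1 was singled out, and chance singles out about 1 in 20.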

How the results depend on the processing

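The number of genes called depended on the processing, and the cause was not tested. With no filter on low counts, 175 genes were called for Nestin-Cre in Egr1wt mice, 803 for Nestin-Cre in Egr1f mice, 1173 for floxP by Nestin-Cre, 82 for floxP without Cre, 79 for sex and 32 for the interaction of Nestin-Cre and sex, against 0, 6, 1, 0, 14 and 0 with the filter. DESeq2 called 10 for Nestin-Cre in Egr1wt mice, 41 for the interaction with floxP and 2 for that with sex. Females alone gave 50 for Nestin-Cre in Egr1f mice and 2 for floxP, and males alone gave 1 for Nestin-Cre in Egr1f mice. Without the 5 mice rich in choroid plexus markers the count was 2 for Nestin-Cre in Egr1f mice and 8 for sex.

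With each mouse left out in turn, the counts ran from 0 to 2 for Nestin-Cre in Egr1wt mice, from 3 to 33 for Nestin-Cre in Egr1f mice, from 1 to 1526 for the interaction with floxP, and from 10 to 15 for sex, and were 0 for floxP without Cre and for the interaction with sex. For Nestin-Cre in Egr1f mice the count was 33 without male Egr1fNesCre- replicate 1, 22 without male Egr1fNesCre+ replicate 3 and 3 without female Egr1fNesCre- replicate 2 or female Egr1fNesCre+ replicate 3. For the interaction with floxP it was 1526 without male Egr1wtNesCre+ replicate 2 and 325 without male Egr1fNesCre- replicate 1. In Egr1wt mice it was 2 without male Egr1wtNesCre+ replicate 2 or female Egr1fNesCre+ replicate 1, and 1 without female Egr1wtNesCre+ replicate 2.

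Among 1589 log2 fold changes of the 8 genes under alternatives, 65 had the other sign than in the fit reported, none of them past the threshold, and 2 of these moved by more than 1 SE: C1qa in Egr1wt males alone (-0.023) and C5ar1 in Egr1f females alone (-0.34). The values of the genes with few counts moved most with Nestin-Cre, from 0.050 to 1.03 for C3 in Egr1wt mice and from -0.34 to 0.80 for C5ar1 in Egr1f mice. Leaving aside C4b, whose Nestin-Cre values were not tested, C3 in Egr1f mice, with no filter, was the 1 value that came to pass the threshold. The replicate numbers were not treated as pairs. Deviations of mice with the same number correlated at -0.188 to 0.237, which cannot exclude a shared litter or handling. With the replicate block the counts were 0, 6, 1, 0, 11 and 0 in the order above. Among the complement genes described here other than C4b, no call changed. Depth limits C3 and C5ar1 most, with 3 to 31 and 4 to 21 counts per mouse.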
